A study of Mus musculus with 12 samples.

Results

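The genes described here are 10 genes that epithelial cells of the choroid plexus express: Ttr, Kl, Folr1, Clic6, Aqp1, Slc4a5, Kcnj13, Otx2, Enpp2 and Prlr. They were chosen as a list of names, matched through Ensembl identifiers, from 41388 genes counted in 12 RNA sequencing libraries of mouse brain. The choroid plexus is a folded tissue in the brain ventricles whose epithelium secretes cerebrospinal fluid. Its cells pump ions across their apical face and water follows, and they make carrier proteins, foremost transthyretin, that bring thyroid hormone and retinol into the fluid. It lies apart from the astrocytes of the brain tissue, and a digest of whole brain can hold both.

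All 8 mice carried a floxed Bmal1 gene (Bmal fl/fl, C57BL\6), and all were given tamoxifen at 2 months of age (2 mg daily, 5 days), so the controls carry the floxed alleles and the drug as well. In the astrocyte knockout (aKO) animals an inducible Cre under ALDH1L1 (ALDH1L1-CreERT2), an astrocyte gene, deletes Bmal1, a transcription factor of the circadian clock; the wild-type (WT) animals had no Cre. Brains were taken at 7 months. Cells held by ACSA-2 beads were called astrocytes (WT 201, 202 and 265, and aKO 203, 205, 208, 221 and 222), and cells that passed were called flowthrough (WT 201 and 202, and aKO 203 and 205). The numbers are read as animals, so 4 animals gave both fractions. Astrocyte library 202 is WT by its title and knockout by its genotype field, and it was kept as WT. All flowthrough titles carry a further letter b, so what it marks cannot be told apart from the fraction.

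The 8 astrocyte libraries held 21816637 to 62655238 counts and the 4 flowthrough libraries 33019572 to 53868165, of which mitochondrially encoded genes took 11.1% to 36.5% and 4.81% to 12.9%. All 13 astrocyte markers had estimates above 0 in astrocytes against flowthrough and 9 of them passed the test, while all 10 microglia markers and all 10 leukocyte markers were lower. Over all genes tested, 8.52% passed as higher in astrocytes and 8.52% as lower. Whole-gene counts of Arntl, the official symbol of Bmal1, were not lower in aKO astrocytes (log2 fold change 1.33, SE 0.47, edgeR adjusted p = 0.9997). They include every exon, so they check neither the deletion nor the labels.

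OTX2, the one transcription factor among the members, binds TAATCC, and BMAL1 with its partner CLOCK binds the E-box CACGTG. RefSeq promoters of GRCm38.p6 (250 bases before to 50 after a start site) were found for 6 of the 10 members, 11 promoters in all, and both motifs were searched on both strands. TAATCC or its complement stood in 1 of the 11, a promoter of Otx2 itself, against 7.06% of all 32851 promoters. CACGTG stood in none of the 11, against 7.15% of all. The bases before the start site of that Otx2 promoter (chr14:48665110-48665359, minus strand) are printed because they hold the only match among the members, with the match in capitals, its first base at -211 from the start site.
Otx2 promoter: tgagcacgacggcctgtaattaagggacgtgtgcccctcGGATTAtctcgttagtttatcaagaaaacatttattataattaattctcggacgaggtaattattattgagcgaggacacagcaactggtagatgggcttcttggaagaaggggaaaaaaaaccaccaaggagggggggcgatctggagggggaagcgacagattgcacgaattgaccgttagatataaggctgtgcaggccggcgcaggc
A match of letters is a description of the sequence and not a measured binding site.

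Positions of the members are given in the mouse genome build GRCm38. Ttr is on chromosome 18 (20665250 to 20674324, plus strand), Kl on chromosome 5 (150952607 to 150993809, plus), and Folr1 on chromosome 7 (101858331 to 101870788, minus). Clic6 is on chromosome 16 (92485736 to 92541243, plus), and chromosome 6 holds both Aqp1 (55336432 to 55348555, plus) and Slc4a5 (83219828 to 83304945, plus). Kcnj13 is on chromosome 1 (87386363 to 87394729, minus) and Otx2 on chromosome 14 (48657679 to 48667644, minus). Chromosome 15 holds Enpp2 (54838898 to 54920146, minus) and Prlr (10177238 to 10349180, plus). The deposited values count reads over the exons of a gene, and 623 of the 1270 exonic bases of Kcnj13 are also exonic in Gigyf2, a gene on the opposite strand. Whether the counting used strand is not given in the sources used here, and reads of that stretch may belong to either gene. Ttr shares 11 exonic bases with Gm16090 and Prlr 203 with Gm21973, and the other 7 members share none.

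Ttr, which encodes the thyroid hormone and retinol carrier transthyretin, was the most counted of all genes in 8 of the 12 libraries, 4 of astrocytes and 4 of flowthrough. Its share of a library's counts was 7.18% ± 5.47 (SD, n = 8) for astrocytes and 19.5% ± 9.81 (SD, n = 4) for flowthrough. In astrocytes its level was 98367, 11967 and 169879 CPM (counts scaled to a common library total) in WT 201, 202 and 265, against 26656, 93619, 104812, 16937 and 51789 CPM in aKO 203, 205, 208, 221 and 222. The flowthrough levels were 197818 (WT 201), 81724 (WT 202), 180863 (aKO 203) and 320720 CPM (aKO 205). WT 202 was lowest and WT 265 highest among astrocytes, so both ends of the range lay within 1 genotype, and the fractions overlapped. Within WT they overlapped too, while within aKO the highest astrocyte level (104812 CPM) lay below the lowest flowthrough level (180863 CPM). Counting error is small beside this spread: the widest 95% Wilson interval of the share was 0.0318 percentage points, and it covers counting error only. In bulk samples such as these, fewer cells of a type and less RNA per cell cannot be told apart. Ttr made up 77.0% to 95.9% of the counts of the 10 members together, while the share of the other 9 was 0.903% ± 0.677 (SD, n = 8) for astrocytes and 1.01% ± 0.294 (SD, n = 4) for flowthrough.

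Enpp2 and Kl encode the other secreted proteins of the list. Enpp2 encodes autotaxin, the secreted enzyme that makes lysophosphatidic acid, and oligodendrocytes express it too. Its level in astrocytes was 18430, 2068 and 5609 CPM in WT 201, 202 and 265, and 7135, 14969, 6695, 4534 and 1839 CPM in aKO 203, 205, 208, 221 and 222. Its flowthrough levels of 8780 and 6689 CPM in WT 201 and 202 and 5764 and 12499 CPM in aKO 203 and 205 fell inside the astrocyte range. Enpp2 was the one member whose lowest astrocyte library was aKO 222 rather than WT 202. Kl encodes klotho, a co-receptor for fibroblast growth factor 23 that is also shed into the fluid. Astrocytes of WT 201, 202 and 265 held 368, 32.0 and 232 CPM of it, against 118, 516, 235, 46.2 and 73.5 CPM in aKO 203, 205, 208, 221 and 222. Flowthrough levels of Kl, 120 to 279 CPM over 4 libraries, lay within that range.

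Folr1 and Prlr take up or sense molecules that reach the epithelium. Folr1 encodes folate receptor alpha, which carries folate into the cerebrospinal fluid. Its levels were 688, 97.6 and 785 CPM in astrocytes of WT 201, 202 and 265 and 198, 657, 654, 123 and 272 CPM in aKO 203, 205, 208, 221 and 222. Flowthrough held 999.6 and 547 CPM of it in WT 201 and 202 and 879 and 255 CPM in aKO 203 and 205, and the last of these was the lowest. Prlr encodes the prolactin receptor. It ran from 49.4 CPM in WT 202 through a median of 247 CPM to 659 CPM in aKO 205 among the 8 astrocyte libraries. Its flowthrough levels of 248 (WT 201), 91.6 (WT 202), 195 (aKO 203) and 449 CPM (aKO 205) lay within that range.

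Aqp1, Slc4a5, Kcnj13 and Clic6 serve the movement of water and ions. Aqp1 encodes the apical water channel, and red blood cells carry it too. It was the least counted member, with 3.28 to 50.6 CPM in astrocytes and 13.3 to 28.3 CPM in flowthrough, and its lowest count was 123 reads in astrocytes of WT 202. Slc4a5, a sodium bicarbonate cotransporter, ran from 5.36 to 113 CPM in astrocytes and from 23.5 to 69.2 CPM in flowthrough. Clic6, an intracellular chloride channel protein, had 131, 20.9 and 121 CPM in astrocytes of WT 201, 202 and 265, against 46.8, 275, 90.6, 27.6 and 39.7 CPM in aKO 203, 205, 208, 221 and 222. For these 3 genes aKO 205 was the highest and WT 202 the lowest of the astrocyte libraries. Kcnj13 encodes the potassium channel Kir7.1, which is found in the apical membrane. Astrocytes of WT 201, 202 and 265 held 538, 55.4 and 160 CPM of it, against 170, 308, 389, 100.5 and 158 CPM in aKO 203, 205, 208, 221 and 222. Flowthrough held 658 (WT 201), 251 (WT 202), 463 (aKO 203) and 41.8 CPM (aKO 205) of Kcnj13, so aKO 205 was the lowest of the 4 and aKO 203 lay between the WT libraries. Otx2, a homeobox factor needed to form the choroid plexus, ran from 20.4 to 139 CPM in astrocytes and from 47.3 to 66.1 CPM in flowthrough, and the spread of its flowthrough levels (8.32, SD, n = 4, in CPM) was small beside its mean of 54.3 CPM.

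**Figure D1:**
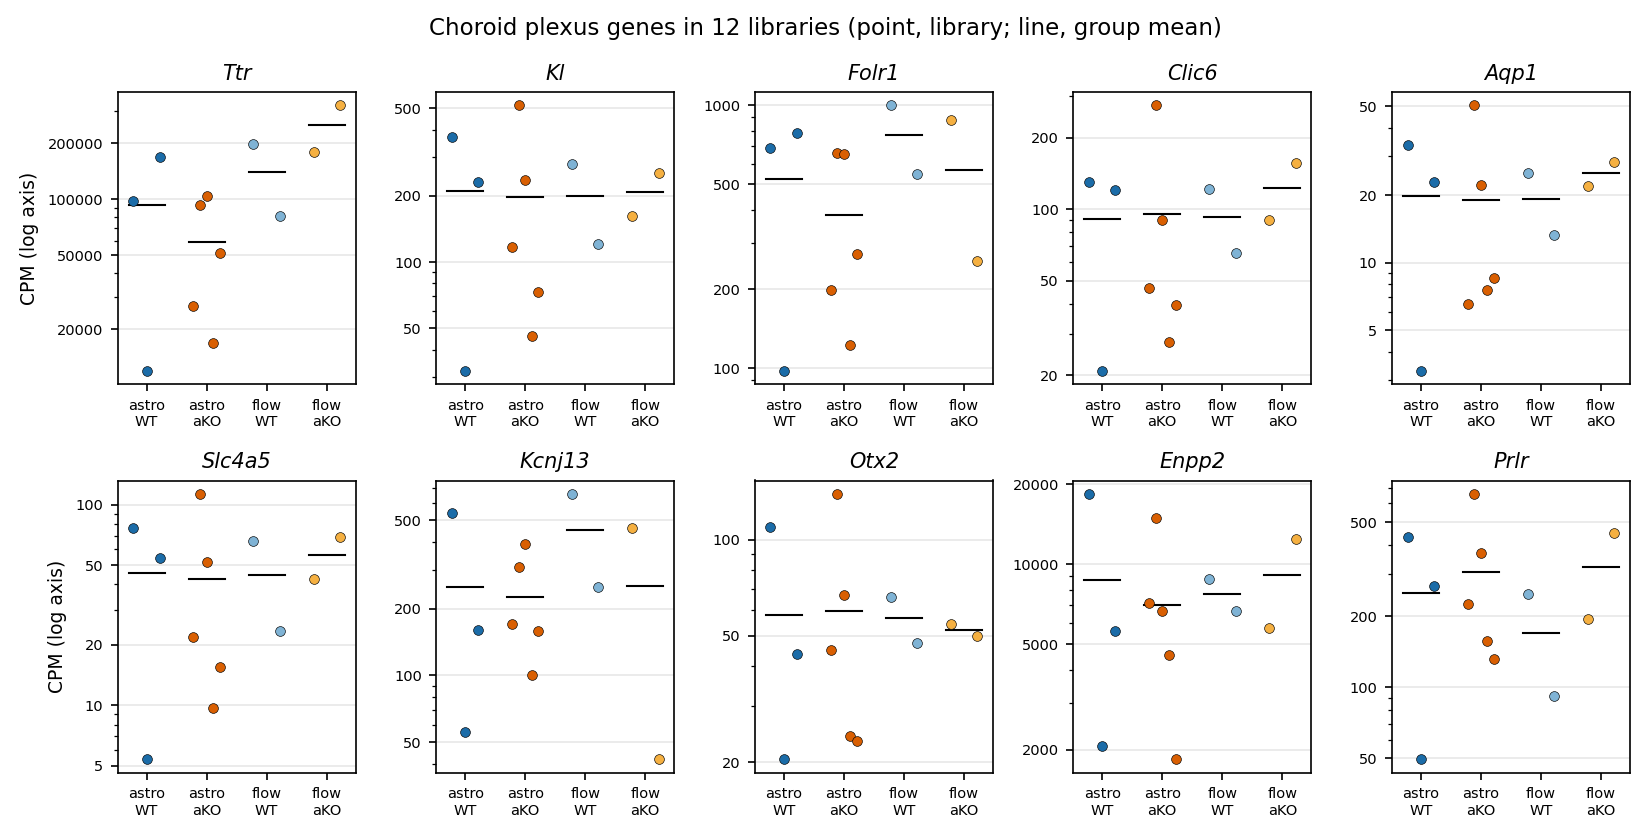
Levels of the 10 choroid plexus genes in CPM on log axes, 1 point per library and a line at each group's mean, for astrocytes (3 WT, 5 aKO) and flowthrough (2 WT, 2 aKO). For each gene WT and aKO overlap within a fraction, and the fractions overlap with the genotypes pooled. For Ttr the aKO flowthrough libraries lie above all astrocyte libraries. WT 202 is the lowest astrocyte library for 9 of the 10, and Kcnj13 and Folr1 are low in 1 aKO flowthrough library where Ttr is highest.

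Per length (RPKM, the CPM of a gene divided by its exonic kilobases), the order of the members was clear at the top and close further down. Ttr averaged 92641 RPKM over the 12 libraries and Enpp2 2280, and Ttr was the higher in 12 of 12 libraries. Enpp2 was above Folr1 (223 RPKM) in 12 of 12. Folr1 and Kcnj13 (216 RPKM) were not separated, with Folr1 the higher in 5 of 12 libraries. The value of Kcnj13 may include reads of Gigyf2, which shares 623 of its 1270 exonic bases. Kl (39.8 RPKM) lay below Kcnj13 in 11 of 12 libraries and above Clic6 (25.2 RPKM) in 12 of 12. Clic6 exceeded Prlr (17.8 RPKM) in 9 of 12 libraries, and Prlr exceeded Otx2 (16.9 RPKM) in 7 of 12. Otx2 was above Slc4a5 (7.88 RPKM) in 12 of 12, and Slc4a5 above Aqp1 (7.75 RPKM) in 7 of 12.

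The astrocyte libraries differed widely in the levels of these genes. The highest and lowest of the 8 differed 13.2-fold at the median of the 10 members, from 6.81-fold for Otx2 to 21.1-fold for Slc4a5. Over the 8825 genes with a mean log2 CPM of at least 3 the median was 3.24-fold. Other marker lists spread over these 8 libraries too: summed pineal markers ran from 16.0 to 401 CPM, erythroid markers from 200 to 1838 CPM and astrocyte markers from 4033 to 17272 CPM. WT 202 was the lowest library for 9 of the 10 members, and aKO 205 was the highest for 6 of them.

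Deletion of Bmal1 in astrocytes was the comparison that the series was designed for. None of the 10 members was called between aKO and WT astrocytes, which does not show that they were unchanged. No member separated the groups. The estimates lay below 0 for 9 of 10, and that for Ttr was the lowest, about the size of its standard error. In numbers, 0 of 10 members passed the quasi-likelihood test of edgeR, adjusted by Benjamini-Hochberg over 18950 genes (0.0264% of all genes tested were called, 0.0211% higher and 0.00528% lower, and adjusted p was 0.9997 for each member), 0 had an unadjusted p under 0.05, and DESeq2 called 0. Log2 fold changes ran from -0.83 (SE 0.83) for Ttr through -0.60 (SE 0.64) for Folr1 and -0.41 (SE 0.67) for Enpp2 to 0.16 (SE 0.59) for Prlr. Their median was -0.25, against 0.02 over all genes tested. Ranges of aKO and WT overlapped for all 10 members (1.41% of all genes tested did not overlap). The library with conflicting labels bore on the size: with 202 counted as aKO all 10 estimates lay below 0, from -1.54 (SE 0.79) for Ttr to -0.52 for Prlr, without it that for Ttr was -1.34 (SE 0.81), and 0 members were called either way. Single animals turned the direction: without WT 265 the estimate for Ttr was 0.19 (SE 0.87), and without WT 201 that for Enpp2 was 0.53 (SE 0.72).

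Several lists of cell type markers also leaned with genotype in astrocytes, and none of those named here had a called gene. Estimates lay below 0 for 11 of 13 astrocyte markers. They lay above 0 for 9 of 10 endothelial, 7 of 8 border macrophage and 6 of 7 tested pineal markers. Microglia and fibroblast markers were more evenly split, each with 6 of 10 above 0. All 12 ependymal markers had estimates below 0 (median -0.74), with Mia at -1.08 (SE 0.56) and Tmem212 at -0.96 (SE 0.61). Their summed level was 698 to 2959 CPM in WT and 761 to 1624 CPM in aKO. All 12 oligodendrocyte markers had estimates above 0 (median 0.86), with Mog at 1.05 (SE 0.46), and summed to 3752 to 12806 CPM in WT and 3792 to 23326 CPM in aKO. The part of these cell types in the members' values was not tested. Of 30 other choroid plexus genes, 27 had estimates below 0 (median -0.20) and 0 were called. Calml4 stood at -0.73 (SE 0.58) and Ecrg4 at -0.91 (SE 0.68).

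In flowthrough, again 0 of 10 members were called between aKO and WT (0% of 20637 genes were called by edgeR's quasi-likelihood test, with 817 genes at an unadjusted p under 0.05 and 0 members among them). Here 8 of 10 estimates lay above 0. Prlr had the highest (1.20, SE 0.86), Ttr followed (1.12, SE 1.10), and Folr1 (-0.24, SE 0.91) and Kcnj13 (-0.68, SE 0.98) lay below 0. The members' median was 0.57, against 0.07 over all genes tested. All 10 overlapped between the groups, in a comparison where 32.7% of all genes did not overlap with 2 libraries against 2. Of the 30 other choroid plexus genes, 21 had estimates above 0 (median 0.38) and 0 were called. All 13 astrocyte markers had estimates below 0 in this comparison (median -1.17, 0 called), and summed to 1092 and 6616 CPM in WT against 565 and 2228 CPM in aKO, and their part in the members' values was not tested. Without aKO 205, which held the most Ttr, the estimates were 0.45 for Ttr, 0.27 for Prlr and -0.22 for Kl, and without WT 201 they were 1.97 for Ttr and 2.18 for Prlr. The difference between both genotype effects (astrocytes minus flowthrough) was -1.89 (SE 1.35) for Ttr and 0.51 (SE 1.22) for Kcnj13, and that for Ttr ran from -2.72 without flowthrough of WT 201 to -0.94 without astrocytes of WT 265. Of the 10 members, 0 were called (0% of 20637 genes, 499 of them at an unadjusted p under 0.05). DESeq2 called 0 members in either comparison.

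**Figure D2:**
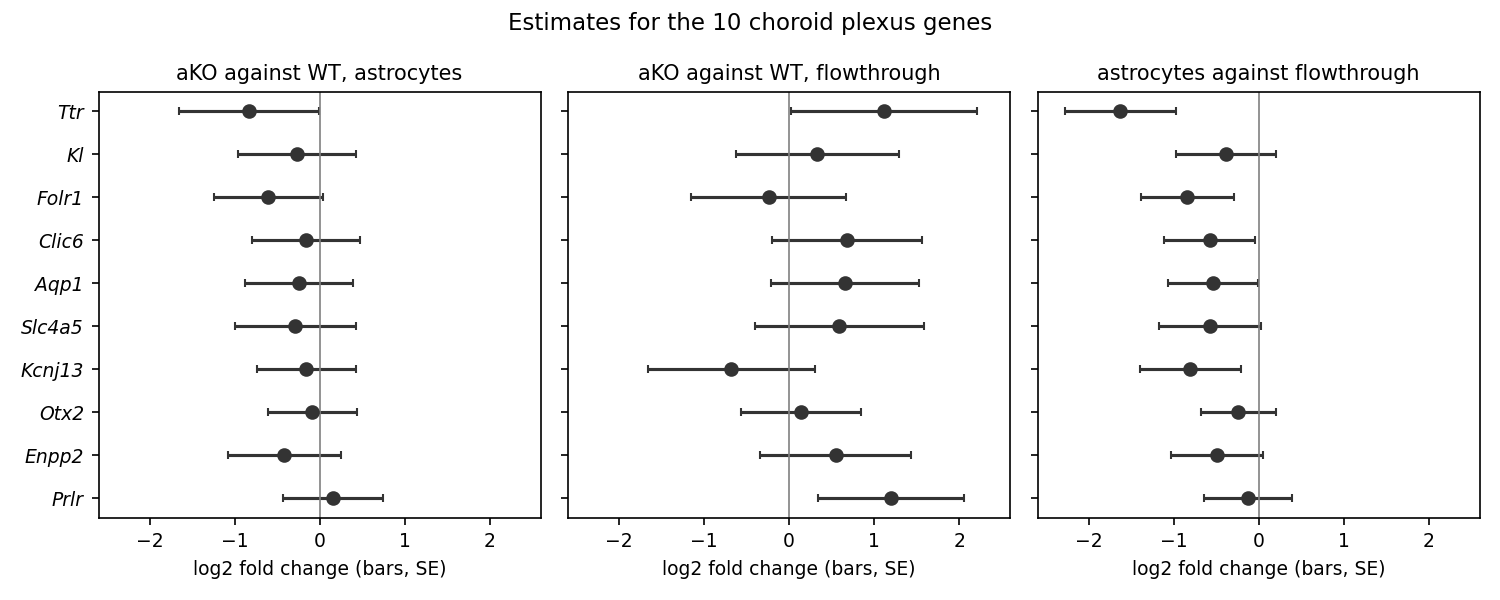
Log2 fold changes of the 10 genes with their standard errors (bars) in 3 comparisons fitted with edgeR: aKO against WT in astrocytes, aKO against WT in flowthrough, and astrocytes against flowthrough. Estimates lie below 0 for 9 of 10 genes in the first, above 0 for 8 of 10 in the second and below 0 for 10 of 10 in the third, where Ttr is lowest at -1.63.

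By their numbers, 4 animals gave both fractions. Comparing the fractions shows where RNA of these genes was found after the bead selection. Ttr was lower in astrocytes than in flowthrough in each of the 4 animals that gave both, by 2.01-fold in CPM in WT 201, 6.83-fold in WT 202, 6.79-fold in aKO 203 and 3.43-fold in aKO 205. The other 9 members did not follow as a block. By deposited CPM, Folr1 and Kcnj13 were lower in astrocytes in 3 of 4 animals, Kl, Clic6, Aqp1, Slc4a5 and Otx2 in 2 of 4, and Enpp2 and Prlr in 1 of 4. On the TMM scale, which allows for a few very abundant genes, Clic6 and Slc4a5 were lower in 4 of 4 and Enpp2, Aqp1 and Prlr in 3 of 4, so the direction within an animal depended on the scaling for these 5 genes.

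Over all 12 libraries, 0 of 10 members were called between the fractions by edgeR's quasi-likelihood test (17.0% of 20637 genes were called, 8.52% higher and 8.52% lower in astrocytes), and Ttr alone had an unadjusted p under 0.05. DESeq2 called Ttr (-1.67, adjusted p = 0.024, with 14.6% of all genes called). All 10 estimates lay below 0, from -1.63 (SE 0.65, adjusted p = 0.0962) for Ttr through -0.84 (SE 0.55) for Folr1 and -0.80 (SE 0.59) for Kcnj13 to -0.13 (SE 0.52) for Prlr, with a median of -0.56 against 0.07 over all genes tested. All 10 overlapped between the fractions (10.9% of all genes tested did not). The call for Ttr depended on the libraries used. When the fit was limited to the 4 animals that gave both (8 libraries), without a block, Ttr was lower in astrocytes by edgeR at -2.18 (adjusted p = 0.0485, with 17.6% of all genes called). With the animal as a replicate block on these 8 libraries, Ttr was lower in astrocytes by edgeR at log2 fold change -2.42 (SE 0.45, adjusted p = 0.00335, lower in 4 of 4 animals), and it was the only member called (29.5% of all genes were called in that fit). Leaving out astrocytes of WT 265 also gave a call in the edgeR fit (-2.06, SE 0.68, adjusted p = 0.0417, with 19.6% of all genes called). Without the astrocyte library 202 the estimate for Ttr was -1.37 (SE 0.63, edgeR adjusted p = 0.177).

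The estimate for Ttr between the fractions was the farthest from 0 of the 10, so the other members were set against it within each library. The number of Ttr counts per count of each of the other 9 members was higher in flowthrough in 4 of 4 animals for 9 of 9 members, and 86.2% of all genes did so. The smallest exact two-sided sign-flip p with 4 pairs is 0.125, so no single ratio was tested that way. The median of the 4 animals' folds was smallest for Folr1 (1.46-fold) and Kcnj13 (2.07-fold), and largest for Prlr (4.36-fold) and Otx2 (4.48-fold). Prlr was the 1 member whose ratio did not overlap between the fractions, with 108 to 631 Ttr counts per Prlr count in 8 astrocyte libraries and 714 to 930 in 4 flowthrough libraries (8.22% of all genes did not overlap).

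**Figure D3:**
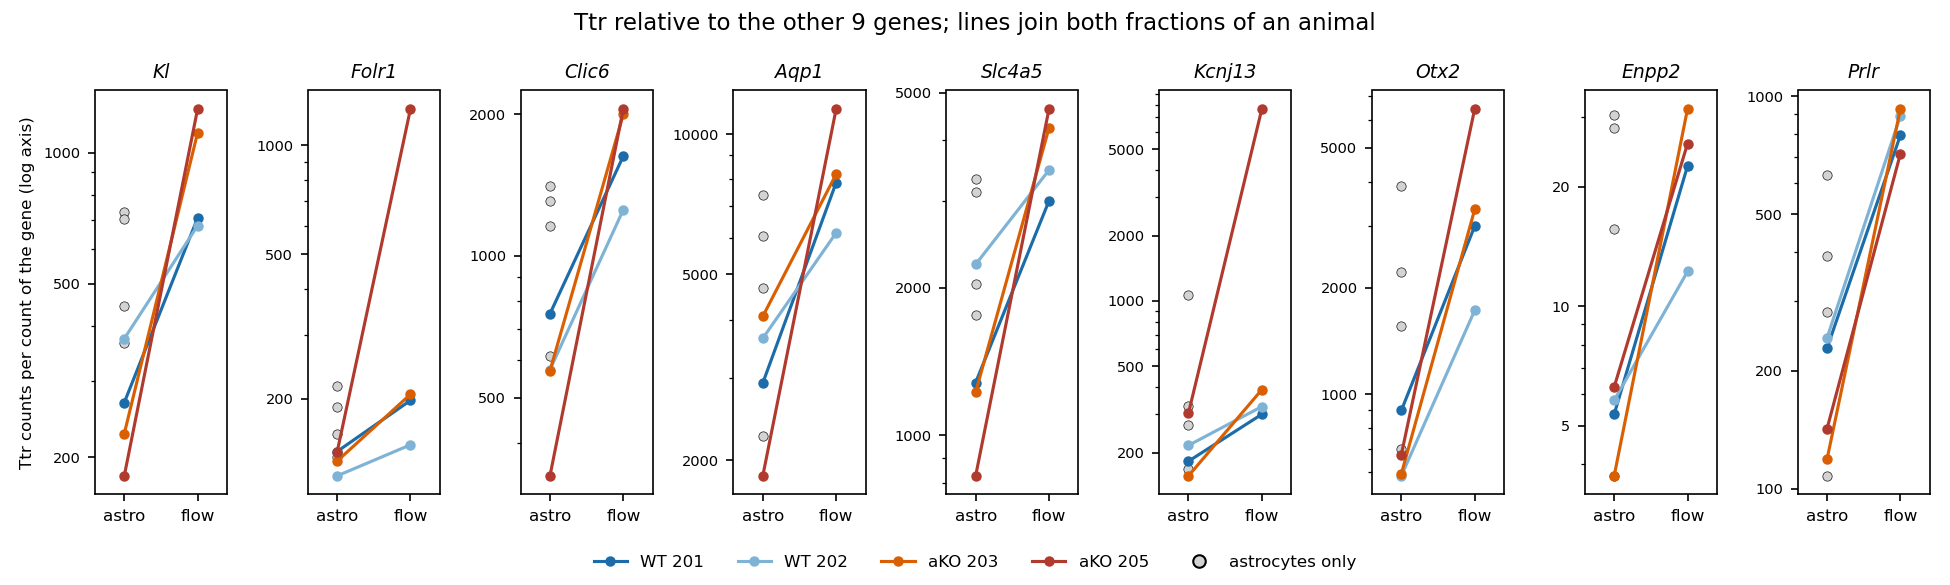
Ttr counts per count of each of the other 9 genes, on log axes, in astrocyte and flowthrough libraries. Coloured lines join both fractions of the 4 animals and rise for all 9 genes in all 4, and grey points are the 4 animals with astrocytes only. Flowthrough of aKO 205 stands apart for Folr1 (1258) and Kcnj13 (7668).

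The same ratios were put to a test across all genes by scaling each library to its Ttr count, a fit chosen after seeing the data. Without a block, 0 of 9 members were called for their ratio to Ttr (51.7% of 20636 genes were called higher in astrocytes relative to Ttr), nor were any on the 8 libraries of the 4 animals (61.5%). With the animal as a replicate block, 8 of 9 were called higher in astrocytes relative to Ttr by edgeR, from Aqp1 (log2 fold change 1.46, SE 0.45, adjusted p = 0.0016) to Otx2 (2.26, SE 0.49, adjusted p = 8.82e-06), and Folr1 was not (1.13, SE 0.61, adjusted p = 0.0758). In that fit 83.5% of all genes were called in the same direction, so a rise relative to Ttr was the common case and not one that set the members apart. All ratios share the Ttr counts, which entered as fixed values, so the calls are not separate results. Ttr was set as the reference because of its estimate in these same data. The members' median in the fit with the block was 1.82, below the 2.53 over all genes tested. Of the 30 other choroid plexus genes, 26 were called higher relative to Ttr in the fit with the block. Wfdc2 (0.53, SE 0.49) and Calml4 (0.44, SE 0.54) were not.

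Likeness to Ttr over all 12 libraries was measured as the SD of the log2 ratio of a gene to Ttr. For the other 9 members it ran from 0.78 (Slc4a5) to 1.55 (Kcnj13) with a median of 0.898, against a median of 1.71 over 8824 genes with a mean log2 CPM of at least 3. Flowthrough of aKO 205 alone set the top of this range: without it Kcnj13 was at 0.76, Enpp2 was the farthest at 1.23, and the medians were 0.793 and 1.56. Among these 9 members, 7 were in the tenth of genes closest to Ttr, and Kcnj13 and Enpp2 were not. Without flowthrough of aKO 205 the count was also 7, with Kcnj13 among them and Prlr and Enpp2 outside. Folr1 was at 0.90 over 12 libraries and at 0.28 without flowthrough of aKO 205, the member closest to Ttr, as it was in astrocytes alone (0.28 over 8 libraries). Over the 12 libraries the 10 genes closest to Ttr were Frmpd1os (0.21), Smim22 (0.22), Gm29538 (0.25), Ooep (0.31), Hemk1 (0.32), Defb11 (0.32), Rilp (0.33), Clic3 (0.33), Wfdc2 (0.35) and Ins2 (0.39). Of these 10 genes, 7 were also among the 10 closest without flowthrough of aKO 205. Wfdc2, a secreted whey acidic protein family member, was the only one of these on the list of other choroid plexus genes. Their exonic length had a median of 911 bases, against 3812 over all genes with a value and 1219 for Ttr, and the part of length in this likeness was not tested. These values are descriptions, and 8 of the 12 libraries share an animal with another.

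The members fell into nearer and farther pairs among themselves. Kl, Slc4a5, Clic6 and Aqp1 kept the steadiest ratios, with an SD of 0.19 for Kl to Slc4a5, 0.29 for Kl to Clic6 and for Clic6 to Aqp1, 0.33 for Clic6 to Slc4a5, 0.36 for Aqp1 to Slc4a5 and 0.37 for Kl to Aqp1. The median SD to all genes was 1.34 for Kl and 1.46 for Slc4a5. Otx2 and Enpp2 formed another near pair (0.46). Folr1 and Kcnj13 were nearer to each other (0.75) than Kcnj13 was to any other member, and the widest pair was Ttr and Kcnj13 (1.55). Without flowthrough of aKO 205, chosen after seeing the data, Ttr and Kcnj13 were at 0.76, the widest pair was Ttr and Enpp2 (1.23), and Ttr and Folr1 (0.28) were second only to Kl and Slc4a5 (0.17). With and without that library, the gene nearest to Kcnj13 was Steap1, and Sostdc1 was among the 5 nearest to Folr1.

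**Figure D4:**
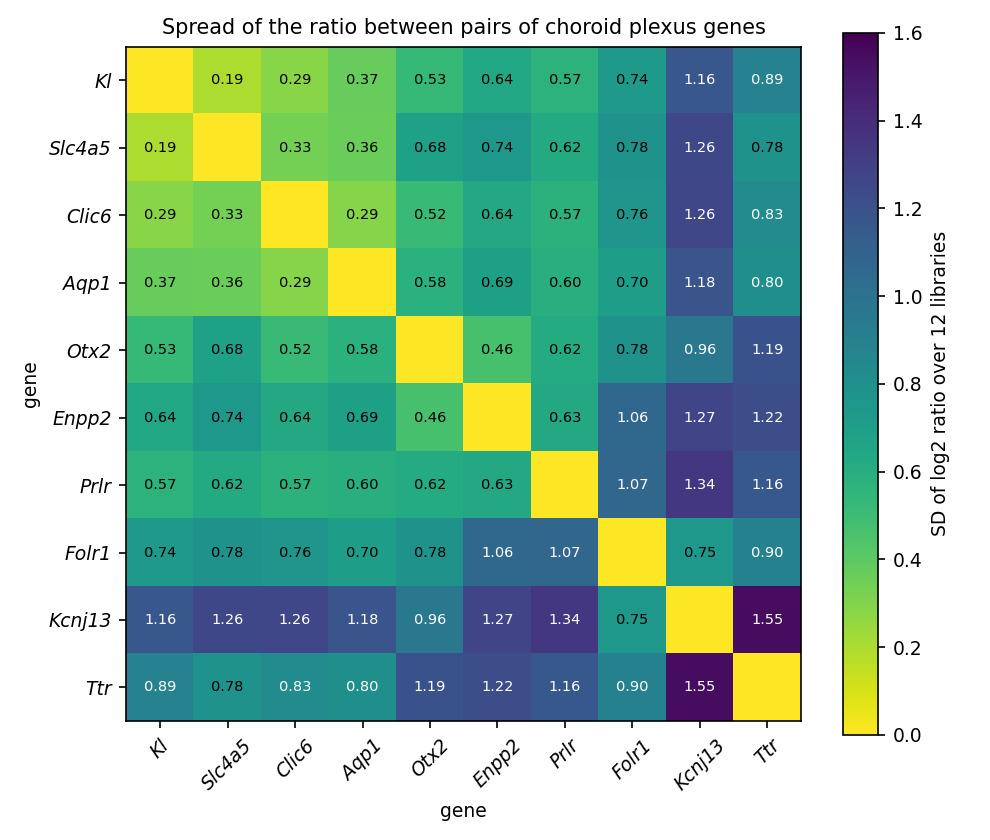
SD over 12 libraries of the log2 ratio between each pair of the 10 genes, by colour and with the value in each cell. Kl, Slc4a5, Clic6 and Aqp1 form the block of small values (0.19 to 0.37), and Kcnj13 and Ttr have the largest (1.55), which is 0.76 without flowthrough of aKO 205.

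Flowthrough of aKO 205 split the list. In deposited CPM, it held the most Ttr of all libraries and lay above the other 3 flowthrough libraries for 6 members (Ttr, Clic6, Aqp1, Slc4a5, Enpp2 and Prlr) and within their range for Kl and Otx2. Yet Folr1, at 255 CPM against 547 to 999.6, was 3.45-fold below the median of the other 3, and Kcnj13, at 41.8 CPM against 251 to 658, was 11.1-fold below it. Of the 30 other choroid plexus genes, 11 lay above the other 3 libraries (Tmem72, F5, Ace and Wfdc2 among them), 9 below (Sostdc1, Steap1, Kcne2, Cldn2, Lbp, Cab39l, Prr32, Rdh5 and Krt18) and 10 within. Over all genes with a mean log2 CPM of at least 3, 43.5% lay below the other 3 in this library and 28.6% above. The TMM factor of this library was the lowest of all (0.754), so places near the edge of a range depend on the scaling. Kcne2 and Kcnj13 both encode parts of potassium channels, and Cldn2 encodes a tight junction protein of this epithelium. In the astrocytes of the same animal, Kcnj13 stood at 308 CPM and Folr1 at 657 CPM, inside the range of the other astrocyte libraries.

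The wider gene set of the epithelium was read against the 17.0% of all genes called between the fractions (8.52% higher in astrocytes). Of 30 other choroid plexus genes, 0 were called by edgeR, 25 estimates lay below 0 and the median was -0.45. Those with the smallest p were Calml4 (-1.35, SE 0.48), Wfdc2 (-1.07, SE 0.53), Tmem72 (-1.06, SE 0.57) and Ecrg4 (-1.04, SE 0.56). Of 18 genes for cerebrospinal fluid secretion and transport, 1 was higher in astrocytes, the peptide transporter Slc15a2 (1.17, SE 0.38, edgeR adjusted p = 0.0426). Of 11 tested genes that handle thyroid hormone and retinol, the cargo of transthyretin, 2 were higher in astrocytes: Dio2, the enzyme that activates thyroid hormone (3.56, SE 0.71, edgeR adjusted p = 0.00252), and the receptor Thrb (1.14, SE 0.34, edgeR adjusted p = 0.0295).

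Of 28 tested ligands, partners and relatives of the members, 8 were higher in astrocytes and 4 lower, where 8.52% of all genes were called in each direction. The bicarbonate cotransporter Slc4a4, a relative of Slc4a5, was higher (3.07, SE 0.57, edgeR adjusted p = 0.00133), with 123 to 378 CPM in 8 astrocyte libraries and 5.24 to 58.1 CPM in 4 flowthrough libraries, which did not overlap. The water channel Aqp4, a relative of Aqp1, was higher (2.52, SE 0.68, edgeR adjusted p = 0.0171), with 162 to 731 CPM against 3.63 to 224 CPM, and the potassium channel Kcnj10, a relative of Kcnj13, was higher too (1.83, SE 0.53, edgeR adjusted p = 0.025). All 3 relatives are genes that astrocytes express, and Aqp4 and Slc4a4 are also on the list of astrocyte markers, so the results of both lists are not separate. Slc4a5 (-0.57, SE 0.60), Aqp1 (-0.54, SE 0.53) and Kcnj13 (-0.80, SE 0.59) had estimates below 0 that did not pass. Whether each pair differed in its fold change was not tested. Among genes of the autotaxin pathway, Plpp3, which breaks down lysophosphatidic acid, was higher in astrocytes (2.93, SE 0.47, edgeR adjusted p = 0.000416) and so was the lysophosphatidic acid receptor gene Lpar4 (1.91, SE 0.37, edgeR adjusted p = 0.00195). The list also holds Lpar1, Lpar2, Lpar3, Lpar5, Lpar6, Plpp1 and Enpp1, which are not described here, so Plpp3 and Lpar4 do not stand for the pathway. Clic1, a relative of Clic6, was among the 4 called lower (-2.14, SE 0.41, edgeR adjusted p = 0.00164). Estimates of the 28 tested genes ran from -3.00 to 4.59.

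**Figure D5:**
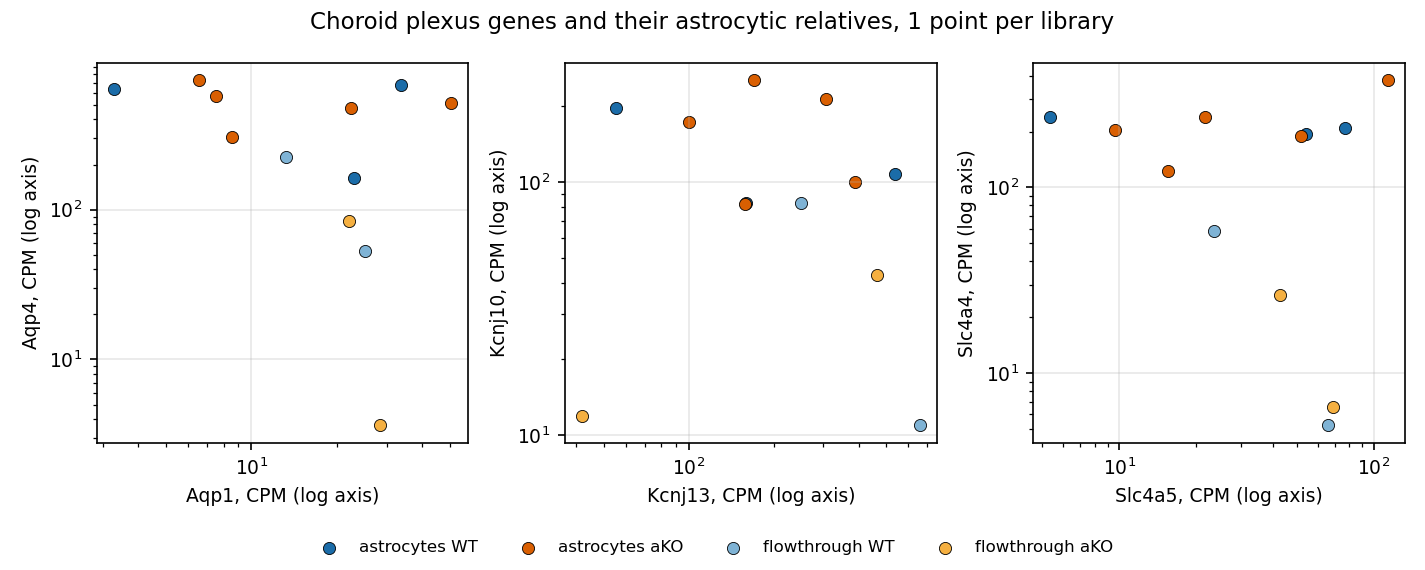
CPM of Aqp1, Kcnj13 and Slc4a5 (horizontal) against their relatives Aqp4, Kcnj10 and Slc4a4 (vertical) on log axes, 1 point per library, coloured by fraction and genotype. Slc4a4 does not overlap between the fractions along the vertical axis (123 to 378 CPM against 5.24 to 58.1 CPM), Aqp4 and Kcnj10 are higher in astrocytes with some overlap, and both fractions share the horizontal range.

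Several members are also made by other cell types, and markers of those moved between the fractions, where 8.52% of all genes tested were called in each direction. Oligodendrocytes express Enpp2, and 10 of 12 oligodendrocyte markers were higher in astrocytes by edgeR (Cldn11 1.98, SE 0.44), with summed levels of 3752 to 23326 CPM in astrocytes and 946 to 6681 CPM in flowthrough. Red blood cells carry Aqp1, and all 7 erythroid markers were lower in astrocytes (Hbb-bt -3.59, SE 0.71), with summed levels of 200 to 1838 CPM in astrocytes against 3292 to 13767 CPM in flowthrough. All 12 ependymal markers had estimates below 0 (median -1.08), and 0 of them were called. The part of these cells in the levels of Enpp2, Aqp1 and the other members was not tested.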

How the data were processed

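Isolated astrocytes and flowthrough of mouse brain were profiled by RNA sequencing in 12 libraries. The authors deposited, per gene, a read count, CPM (counts scaled to a common library total) and RPKM (CPM per kilobase of exon). Per the submitters' processing notes the tools were bcl2fastq, Subread, featureCounts 1.4.6-p5 and STAR 2.5.1a, on GRCm38; for annotation release, multi-mapping and strand the setting is not given in the sources used here. The reference's gene-name table gave symbols for 40254 of the 41388 gene identifiers, and the other 1134 stayed in the tests.

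Counts were tested in edgeR 4.0.16 (R 4.3.3; quasi-likelihood, robust dispersion, TMM, filterByExpr with a minimum count of 10 and a minimum total of 15), two-sided, with Benjamini-Hochberg adjustment over all genes and a threshold of 0.05, after a test on simulated data. All 10 members passed the filter in each comparison. The genotype comparison in astrocytes used the 8 astrocyte libraries, and the others a fit of 12 libraries in 4 groups. SE is the log2 fold change over the square root of F. Log2 ratios used a prior count of 2. The labels do not say more about independence, so p-values measure the spread between these samples. Fits without a block take the libraries as independent, although 4 animals gave both fractions. Fits with a block measure the spread within animals. Equal numbers were read as the same animal. Across genes, deviations of both fractions correlated with r of 0.0823, 0.424, 0.166 and 0.404 (animals 201, 202, 203, 205). No values for libraries of different animals are set beside these, so they do not settle that reading.

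Named genes were the 10 members, Arntl, in each described list at most 4 genes of smallest p, the 10 genes most like Ttr, and Rpe65. Further genes in the account of aKO 205, the genes nearest to Folr1 and Kcnj13, and the relatives and markers named beside a member were chosen after their values were seen. The members and lists were chosen with earlier results of these data known. Alternatives were DESeq2 1.42.0 and its size factors, no filter, limma 3.58.1 voom with weights, Ttr left out of the totals, each library left out, library 202 as aKO, other sets of libraries, and an animal block. Scaling to Ttr, leaving out aKO 222 and WT 265 together, and leaving out single libraries in the ratios between members, were chosen after seeing the data.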

Additional observations from a re-analysis of the deposited data

Results flagged for a closer look

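Among 57 sets of 4 to 8 libraries examined, 5 held a library whose gap to the next one was large against the range of the set. The rule flags about 1 in 20 of independent sets with normally distributed values. The sets here overlap and hold CPM and ratios that were not put on a log scale, so that rate does not apply to them. Clic6 stood at 274.6 CPM in astrocytes of aKO 205, against 90.6 CPM in the next highest aKO library and 130.6 CPM in the next highest of all 8 astrocyte libraries. Flowthrough of aKO 205 held 1258 Ttr counts per count of Folr1, where the next highest flowthrough library held 206. The same library held 7668 Ttr counts per count of Kcnj13, where the next highest held 390. Astrocytes of WT 265 held 1062 Ttr counts per count of Kcnj13, against 328 in the next highest astrocyte library.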

How the results depend on the processing

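In both genotype comparisons most members' estimates changed direction when single libraries were left out. In aKO against WT astrocytes, 5 genes were called, against 8 without a count filter, 11 with DESeq2, 0 with library 202 as aKO (Prlr -0.52), 1 in the fit of 12 libraries and 0 to 5 with 1 library left out. Leaving out both aKO 222 and WT 265, chosen after seeing the data, gave 3 called genes and turned Ttr (0.14), Kl (0.14), Folr1 (0.044), Clic6 (0.43), Aqp1 (0.17), Slc4a5 (0.20) and Otx2 (0.0072) above 0. With 1 library left out, log2 fold changes ran from -1.34 to 0.19 for Ttr, -0.77 to 0.24 for Kl, -1.08 to 0.024 for Folr1, -0.79 to 0.29 for Clic6, -0.76 to 0.21 for Aqp1, -0.82 to 0.17 for Slc4a5, -0.61 to 0.84 for Kcnj13, -0.48 to 0.56 for Otx2, -0.86 to 0.53 for Enpp2 and -0.31 to 0.64 for Prlr. In flowthrough, 0 genes were called, against 45 without a filter, 1 with DESeq2 and 0 to 1 with 1 library left out; Otx2 was -0.013 in a fit of the 4 flowthrough libraries. There, leaving out 1 library moved Kl from -0.22 to 1.14, Folr1 from -1.29 to 0.31, Slc4a5 from -0.025 to 1.60, Kcnj13 from -3.15 to 0.24, Otx2 from -0.16 to 0.45 and Enpp2 from -0.32 to 1.01; a lone library was then assumed to vary like the other groups. Between the fractions, 3517 genes were called, against 5951 with the animal as a replicate block and 1691 to 4107 with 1 library left out. Ttr was the 1 member called with DESeq2, with the replicate block, on the same 8 libraries without it (adjusted p = 0.0485, edgeR) and without aKO 222 and WT 265; with 1 library left out, 0 to 1 members were called. The estimate for Prlr was 0.0050 with library 202 as aKO, that for Otx2 was 0.074 on the 8 libraries without the block, and leaving out 1 library gave -0.65 to 0.071 for Kl, -1.31 to 0.42 for Kcnj13 and -0.42 to 0.40 for Prlr. The estimate for Ttr stayed below 0 under each alternative run between the fractions, with adjusted p from 0.00335 to 0.388. For the difference of genotype effects, 0 genes were called, against 40 without a filter, 1 with the replicate block and 1 on the same 8 libraries without it; Kcnj13 was -0.12 with library 202 as aKO and ran from -0.40 to 2.98 with 1 library left out. For ratios to Ttr, 0 members were called, against 8 with the replicate block. The causes of these shifts were not tested. The lowest count of a member was 123, and no alternative varied the depth.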

Other observations

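Otx2 is also made in the pineal gland and the retinal pigment epithelium, and both marker lists were read beside it. Of 7 tested pineal markers, 4 were higher in astrocytes than in flowthrough by edgeR (8.52% of all genes tested were called higher): Pde6b (log2 fold change 3.65, SE 1.03), Crx (4.59, SE 1.39), Tph1 (5.04, SE 1.51) and Lhx4 (3.95, SE 1.26). Crx encodes a relative of OTX2 that acts in pineal cells and photoreceptors, and Tph1 the enzyme that starts melatonin synthesis. Their list summed to 401 CPM in astrocytes of aKO 222, to 16.0 to 96.7 CPM in the other 7 astrocyte libraries and to 14.3 to 16.3 CPM in flowthrough. Tph1 alone stood at 101 CPM in aKO 222. Otx2 stood at 23.3 CPM in that library, the lowest of the 5 aKO astrocyte libraries.

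Rpe65, the visual cycle enzyme of the retinal pigment epithelium, was higher in astrocytes than in flowthrough by edgeR (2.93, SE 0.67, adjusted p = 0.00638). The list did not move as one: of its 8 tested members 3 had estimates below 0 and Rpe65 was the only one called (8.52% of all genes tested were called higher). Rpe65 stood at 19.8, 10.9 and 14.3 CPM in astrocytes of WT 201, 202 and 265, and at 0.174 to 2.1 CPM in the 5 aKO libraries. The pigment gene Tyr was at 0 to 3 counts in each library, and the list summed to 16.4 to 52.6 CPM in astrocytes and 18.3 to 33.7 CPM in flowthrough. Rpe65 was lower in aKO than in WT astrocytes by edgeR (-3.88, SE 0.50, adjusted p = 0.0076, with 0.00528% of all genes called lower). That call depended on the WT libraries. With library 202, whose labels conflict, as aKO 0 genes were called, and without WT 201 also 0. Of the 7 members of the list tested there, 4 had estimates above 0, with Lrat at 2.03 (SE 0.69) and Tyrp1 at 1.52 (SE 1.06). Ranges of WT and aKO overlapped for Otx2, Kcnj13, Slc4a5 and Ttr.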
